A study of Arabidopsis thaliana with 18 samples.

Results

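Aquaporins are membrane channels for water and small uncharged solutes, and this account covers the whole family of Arabidopsis thaliana, the thale cress. The 35 genes were taken by locus code from the family's published naming and not by any measured value, and all 35 were among the 34218 features of the deposited count table. They comprise 5 PIP1, 8 PIP2, 10 TIP, 9 NIP and 3 SIP genes. RNA was sequenced from roots, 1 cm long per the design text, of seedlings aged 5 days. The groups were vnd123, which carries mutations in VND1, VND2 and VND3 together, with 1 µM abscisic acid (ABA) or mock for 8 h, the vnd7 mutant with ABA or mock, and the wild type Col-0 with ABA or mock. ABA is the hormone of drought and osmotic stress, and the NAC transcription factors of the VND group drive xylem vessel formation. Each group had 3 libraries, 18 in all, and a library pooled 50 to 100 seedlings. The sources used here name neither the mutant alleles nor whether replicates were separate cultures, so p-values measure only the spread among these libraries, which may be technical.

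PIP proteins sit in the plasma membrane and carry much of the water that moves from cell to cell across a root. PIP1 proteins generally need a PIP2 partner to reach the plasma membrane, while PIP2 proteins are efficient water channels by themselves. TIP proteins sit in the membrane of the vacuole and let its volume follow water demand, and some of them also pass ammonia, urea or hydrogen peroxide. NIP proteins carry metalloids such as boric acid and arsenite, glycerol or lactic acid more than water, and SIP proteins reside in the endoplasmic reticulum. In roots, ABA is known to act on water uptake, and the xylem vessels that VND factors specify carry that water to the shoot.

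Library totals ran from 38325491 to 58705802 counts, and the first principal component, with 62.6% of the variance, separated ABA from mock libraries. As a check of the labels, VND1, VND2 and VND3 were lower in vnd123 than in Col-0 in mock, by -4.69 ± 0.73, -2.00 ± 0.24 and -1.32 ± 0.14 on the log2 scale. VND7 was lower in vnd7 than in Col-0 in mock, at -2.56 ± 0.29. All 9 endodermis, 6 root hair, 6 xylem vessel, 4 phloem, 4 root cap and 4 root meristem markers had reads in every group. The 8 shoot photosynthesis markers summed to 80.7 to 119 CPM in the mutants with ABA and 106 to 156 CPM in the mutants in mock, against 106 to 145 CPM in Col-0 with ABA and 147 to 197 CPM in Col-0 mock. The 4 seed storage markers had 0 reads in every library. In bulk roots, fewer cells of a type and less RNA per cell cannot be told apart.

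Aquaporin transcripts made up a larger share of the root's RNA with ABA than in mock. Levels are CPM, counts per 1e6 counts on scaled library sizes, and between genes CPM per kb of exon. The 35 genes together held 1.84 ± 0.135% of the counts of vnd123 with ABA, against 1.31 ± 0.128% in vnd123 mock (SD, n = 3 here and below). The share was 1.86 ± 0.234% in vnd7 with ABA, against 1.27 ± 0.145% in vnd7 mock. It was 1.94 ± 0.0645% in Col-0 with ABA, against 1.30 ± 0.174% in Col-0 mock. In each genotype the 3 ABA libraries lay above the 3 mock libraries, and an exact test of 3 against 3 cannot go below p = 0.1. The PIP1, PIP2 and TIP shares were higher with ABA in all 3 genotypes. The NIP share was lower, at 0.0219% in vnd123, 0.0202% in vnd7 and 0.0204% in Col-0 with ABA, against 0.0306%, 0.0296% and 0.0321% in the same genotypes in mock. Most of this fall was NIP1;1, with means of 66.3, 59.3 and 60.2 CPM with ABA against 164, 159 and 181 CPM in mock. In each genotype the means of NIP1;2, NIP4;2 and NIP5;1 were higher with ABA, and those of NIP2;1, NIP3;1, NIP6;1 and NIP7;1 lower.

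**Figure D1:**
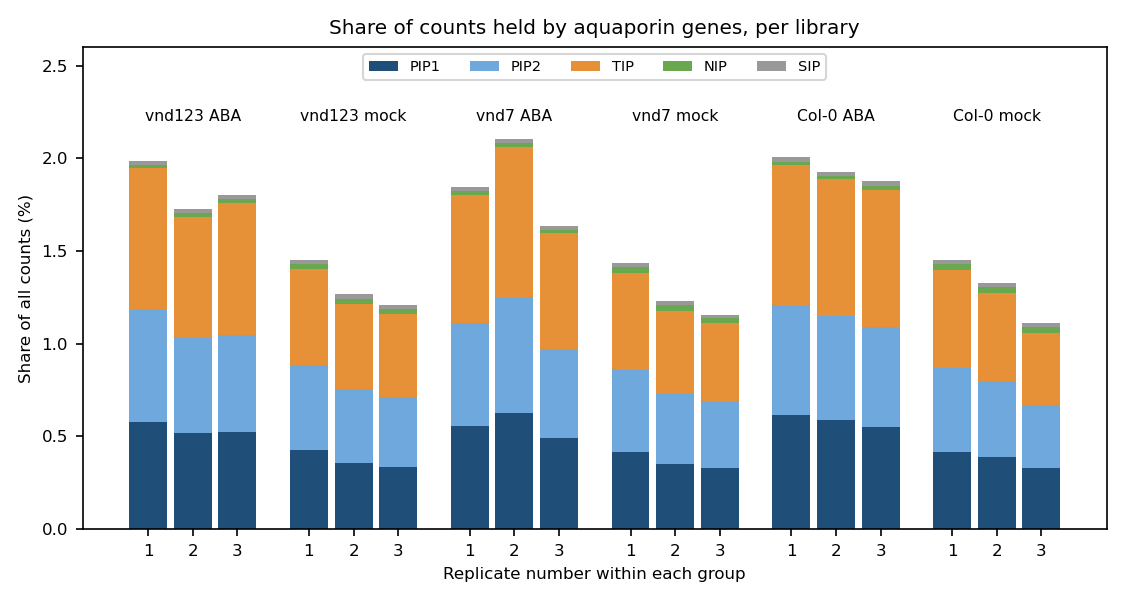
Stacked bars give the share of all counts (%) held by the PIP1, PIP2, TIP, NIP and SIP genes in each of the 18 libraries, with ABA libraries left of mock libraries of the same genotype. The lowest ABA library stood at 1.63% and the highest mock library at 1.45%.

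Vacuolar and plasma membrane channels were the abundant ones. Per kb of exon, TIP1;1, the main TIP of elongating cells, had the highest level in all 6 groups, with 1982 ± 174 CPM per kb in vnd123 with ABA, 1981 ± 284 in vnd7 with ABA and 2057 ± 47.0 in Col-0 with ABA. In mock, TIP1;2 and PIP2;2 came next. The spreads of the first and second genes met, at 1399.9 ± 215 and 1195 ± 209 CPM per kb in Col-0 mock. Within each of these libraries TIP1;2 was still the lower, with 0.906, 0.893 and 0.866 reads per TIP1;1 read. With ABA, PIP1;2 came second, rank 2 against rank 5 or 6 in mock. Its level was 1594 ± 86.8 CPM per kb in Col-0 with ABA, which overlapped the 1509 ± 78.8 CPM per kb of PIP2;1. TIP genes held 43.0%, 42.6% and 43.0% of the family's summed CPM per kb in vnd123, vnd7 and Col-0 with ABA, against 40.4%, 40.3% and 39.9% in mock. By mean level over all groups, the lowest tested members were NIP2;1, PIP2;5 and NIP6;1, whose group means stayed between 0.177 and 2.82 CPM per kb. 16 members averaged above 100 CPM in every group.

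**Figure D2:**
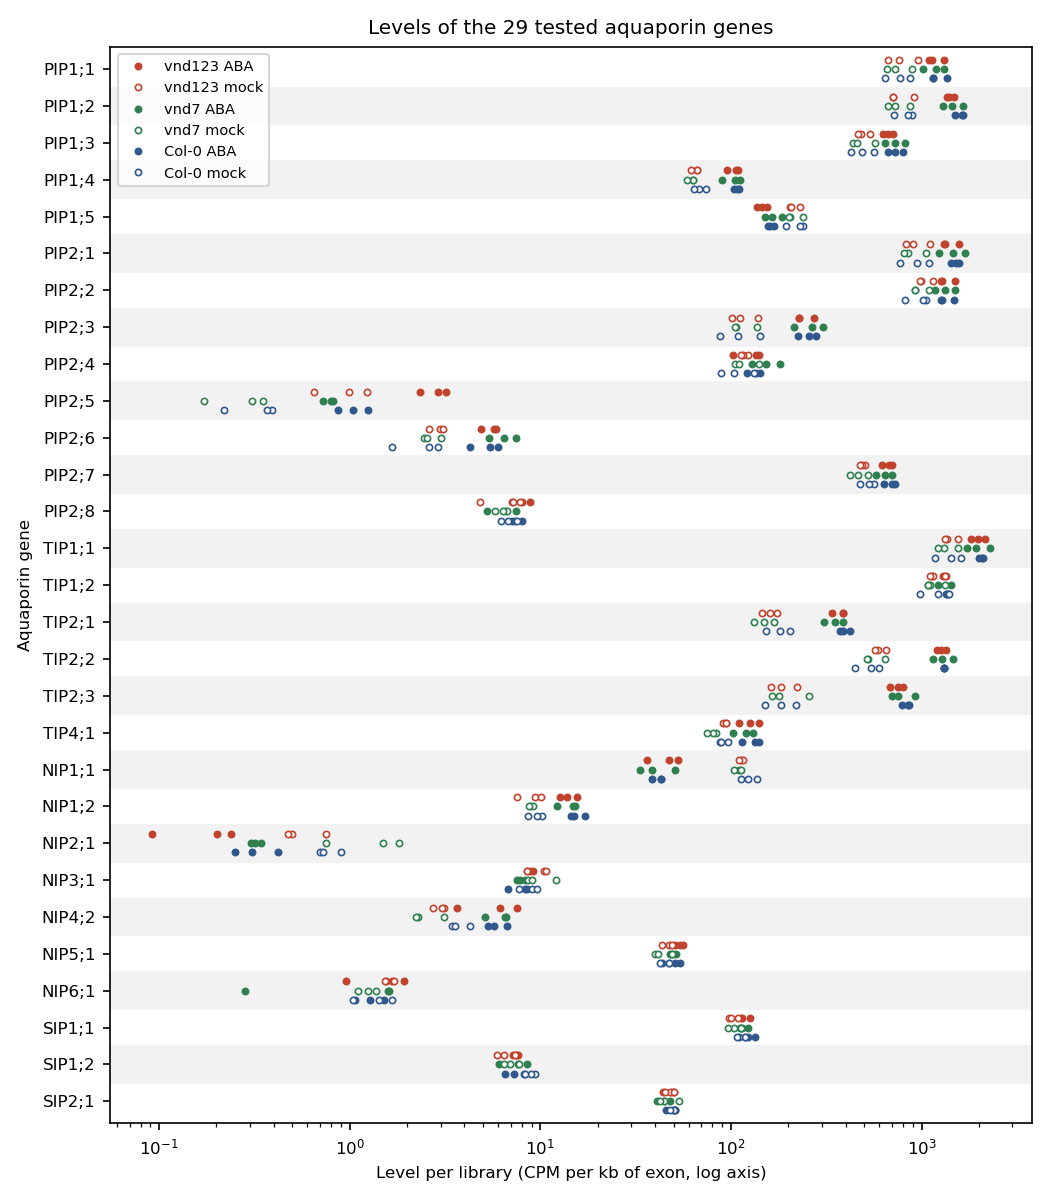
Each point is 1 library's level in CPM per kb of exon (log axis) for the 29 tested aquaporin genes, where filled points are ABA, open points mock, and colours are vnd123, vnd7 and Col-0. TIP1;1 is at the right end of the axis in all 6 groups, and the lowest 3 genes lie at the left.

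Of the 35 genes, 29 had enough reads to be tested and 6 did not. TIP5;1 and NIP4;1, known from pollen, had 0 reads in all 18 libraries, where 3 counts correspond to 0.0511 to 0.0783 CPM in a library. TIP3;1 and TIP3;2, the TIPs of maturing seeds, had 7 and 2 reads in all. TIP1;3, another pollen gene, had 36 reads, of which 17 were in replicate 2 of vnd7 with ABA. NIP7;1, known from anthers, had 62 reads spread over 13 libraries. These 6 genes were given no fold change.

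ABA raised most of the tested aquaporin genes in all 3 genotypes. Changes are log2 fold changes ± SE, ABA over mock, and a gene is said to rise or fall where the Benjamini-Hochberg adjusted p of edgeR's quasi-likelihood test, over 20869 genes, was under 0.05. In vnd123, 18 of 29 rose, beside 18.6% of all genes tested, and 3 fell, beside 13.8%. In vnd7, 17 rose, beside 18.8%, and 3 fell, beside 14.5%. In Col-0, 17 rose, beside 17.9%, and 3 fell, beside 13.4%. The median change of the 29 genes was 0.44 in vnd123, 0.54 in vnd7 and 0.51 in Col-0, against 0.01, 0.01 and 0.00 over all genes tested. Among the 2205 genes above 100 CPM, which are closer to the aquaporins in level, 28.1% rose in vnd123, 28.4% in vnd7 and 24.6% in Col-0. The family was picked with earlier results of these data known, so these shares describe it and are not a test. The same 17 genes rose and the same 3 fell in each genotype, and 8 were called in none. With unscaled library sizes 17 aquaporins rose in each genotype, 3 fell in vnd123, and 4 fell in vnd7 and in Col-0, while all genes split into 3085 higher and 3838 lower in vnd123, 3053 and 4449 in vnd7, and 3050 and 4075 in Col-0.

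**Figure D3:**
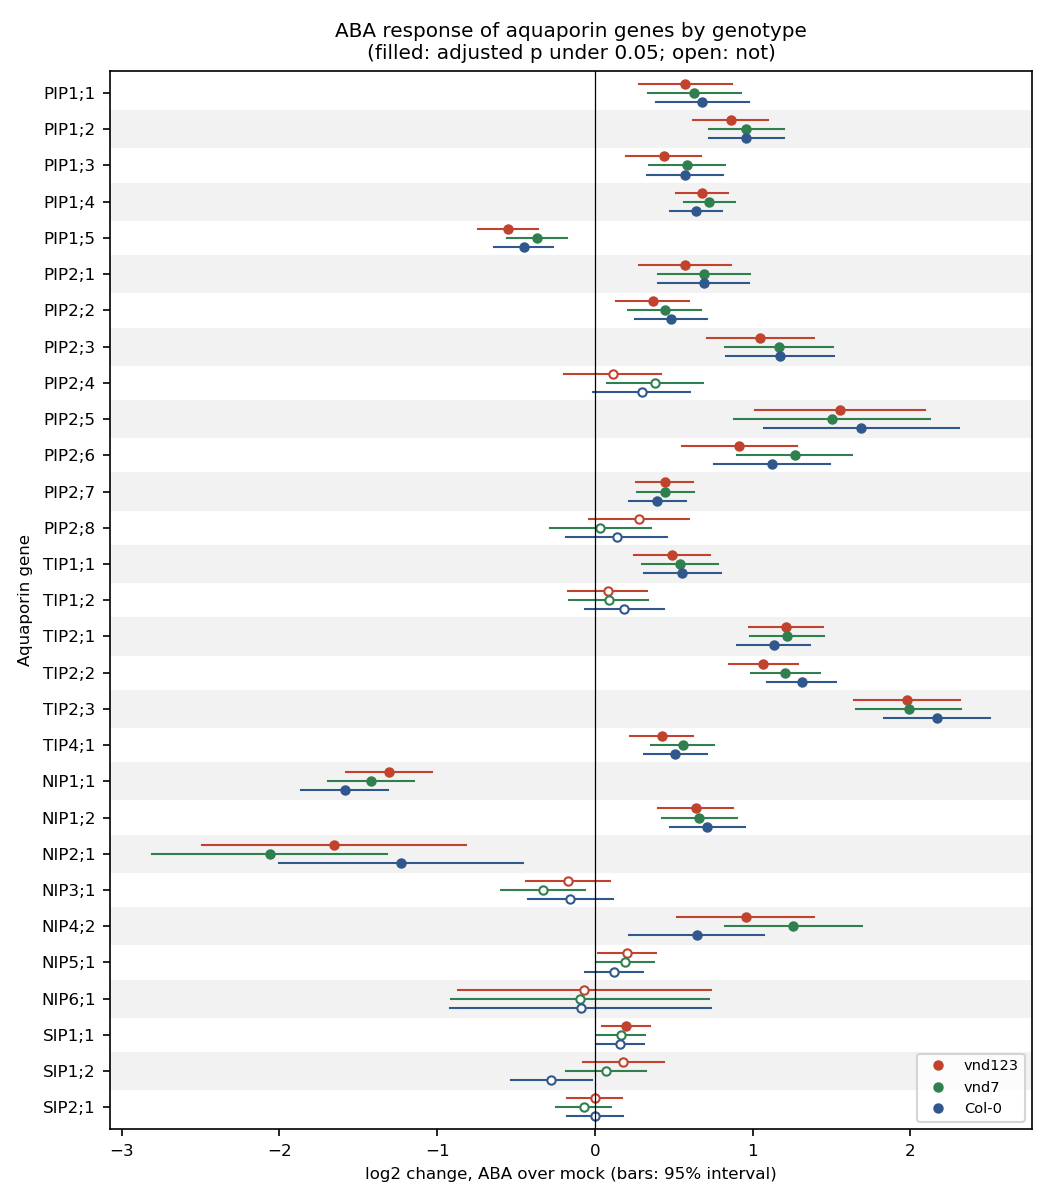
Points give the log2 change with ABA over mock and bars its 95% interval for the 29 tested genes, in vnd123, vnd7 and Col-0 from top to bottom in each row, and filled points passed the adjusted p of 0.05. TIP2;3 lies farthest right, between 1.98 and 2.17, and the 3 genes that fell are the filled points left of 0.

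Of the 5 PIP1 genes, 4 rose and 1 fell in every genotype, and the 2 most abundant are given in full with the one that fell. PIP1;2 (AT2G45960), whose loss lowers the hydraulic conductivity of roots, had 2351, 2182 and 2229.9 CPM in vnd123 with ABA, against 1459, 1135 and 1127 CPM in vnd123 mock. Its vnd7 libraries had 2318, 2647 and 2061 CPM with ABA, against 1386, 1154 and 1070.3 CPM in mock. Col-0 had 2643, 2606 and 2387 CPM with ABA, against 1417, 1359.5 and 1151 CPM in mock. All 9 ABA libraries lay above all 9 mock libraries. On the log2 scale it rose by 0.86 ± 0.11 in vnd123, 0.96 ± 0.11 in vnd7 and 0.96 ± 0.11 in Col-0 (adjusted p = 5.87e-06, 1.33e-06 and 1.46e-06). PIP1;1 (AT3G61430), the other abundant PIP1 gene, had 2042, 1772 and 1702 CPM in vnd123 with ABA, against 1491, 1178 and 1036 CPM in vnd123 mock. In vnd7 it reached 1850.4, 2050.2 and 1582 CPM with ABA, against 1393, 1129 and 1019.7 CPM in mock. In Col-0 the values were 2114, 1795 and 1791 CPM with ABA, against 1359, 1205 and 995 CPM in mock. Again no ABA library overlapped a mock library. The gene rose on the log2 scale by 0.57 ± 0.14 in vnd123, 0.63 ± 0.14 in vnd7 and 0.68 ± 0.14 in Col-0 (adjusted p = 0.00356, 0.00153 and 0.00083). PIP1;3 and PIP1;4 rose by 0.44 ± 0.11 and 0.68 ± 0.08 in vnd123, by 0.58 ± 0.12 and 0.73 ± 0.08 in vnd7, and by 0.57 ± 0.12 and 0.64 ± 0.08 in Col-0. PIP1;5 (AT4G23400) had 193, 182 and 206 CPM in vnd123 with ABA, against 307, 271 and 274 CPM in vnd123 mock. The vnd7 mutant showed 218, 247 and 199.8 CPM with ABA, against 316, 272 and 269 CPM in mock. The wild type Col-0 showed 214, 223 and 207 CPM with ABA, against 318, 305 and 259 CPM in mock. Here all 9 ABA libraries lay below all 9 mock libraries, the opposite of the other 4 PIP1 genes. As a log2 change it fell by 0.55 ± 0.09 in vnd123, 0.37 ± 0.09 in vnd7 and 0.45 ± 0.09 in Col-0 (adjusted p = 8.06e-05, 0.00339 and 0.0006). Per read it stood at 0.939, 1.08 and 1.00 times PIP1;4 in vnd123, vnd7 and Col-0 with ABA, against 2.20, 2.31 and 2.14 times in mock.

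Of the 8 PIP2 genes, 6 rose in every genotype and none fell. PIP2;1 (AT3G53420), which helps lateral roots to emerge and is a target of ABA-activated phosphorylation, had 2487, 2064 and 2094 CPM in vnd123 with ABA, against 1749.9, 1423 and 1301 CPM in vnd123 mock. For vnd7, the libraries held 2302, 2667 and 1934 CPM with ABA, against 1669, 1337 and 1265 CPM in mock. Among Col-0 libraries it was at 2484, 2399 and 2239.9 CPM with ABA, against 1725, 1483 and 1211 CPM in mock. The ABA and mock libraries did not overlap. Its log2 level rose by 0.57 ± 0.14 in vnd123, 0.69 ± 0.14 in vnd7 and 0.69 ± 0.14 in Col-0 (adjusted p = 0.0033, 0.000564 and 0.000638). PIP2;2 (AT2G37170), a main water channel of root cells, had 2004, 1713 and 1708 CPM in vnd123 with ABA, against 1548, 1342 and 1316 CPM in vnd123 mock. Its vnd7 libraries had 1788, 2019 and 1581 CPM with ABA, against 1474, 1246 and 1247 CPM in mock. Col-0 had 2002, 1702 and 1731 CPM with ABA, against 1427, 1366 and 1100.5 CPM in mock. Its ABA libraries were above its mock libraries by a narrow margin, with 1581 CPM the lowest and 1548 CPM the highest. On the log2 scale it rose by 0.37 ± 0.11 in vnd123, 0.44 ± 0.11 in vnd7 and 0.48 ± 0.11 in Col-0 (adjusted p = 0.0142, 0.00373 and 0.00194). The call in vnd123 was lost without ABA replicate 1 (adjusted p = 0.0793), mock replicate 2 (0.0556) or mock replicate 3 (0.0627) of vnd123.

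PIP2;3 (AT2G37180), first described as the dehydration-responsive gene RD28, had 334, 279 and 278 CPM in vnd123 with ABA, against 170.0, 137 and 124 CPM in vnd123 mock. In vnd7 it reached 323, 373 and 261 CPM with ABA, against 168, 130.4 and 128 CPM in mock. In Col-0 the values were 342, 312 and 275 CPM with ABA, against 173, 132 and 107 CPM in mock. Every ABA library was above every mock library. The gene rose on the log2 scale by 1.05 ± 0.16 in vnd123, 1.17 ± 0.16 in vnd7 and 1.17 ± 0.16 in Col-0 (adjusted p = 4.32e-05, 1.14e-05 and 1.15e-05). This gene and PIP2;2 are neighbours with nearly the same sequence, and how reads that fit both were counted is not stated in the sources used here, so the split between them is uncertain. As counted, it had 0.164, 0.177 and 0.171 reads per read of that neighbour in vnd123, vnd7 and Col-0 with ABA, against 0.102, 0.107 and 0.105 in mock. PIP2;6 (AT2G39010) had 10.4, 12.3 and 12.6 CPM in vnd123 with ABA, against 5.60, 6.43 and 6.66 CPM in vnd123 mock. The vnd7 mutant showed 16.0, 13.8 and 11.6 CPM with ABA, against 6.46, 5.28 and 5.49 CPM in mock. The wild type Col-0 showed 9.15, 12.9 and 11.7 CPM with ABA, against 5.62, 3.57 and 6.28 CPM in mock. The groups were apart at this far lower level too. As a log2 change it rose by 0.92 ± 0.17 in vnd123, 1.27 ± 0.17 in vnd7 and 1.12 ± 0.18 in Col-0 (adjusted p = 0.00036, 8.39e-06 and 4.73e-05). PIP2;7, which the ABA-induced protein TSPO binds, rose by 0.44 ± 0.09 in vnd123, 0.45 ± 0.09 in vnd7 and 0.40 ± 0.09 in Col-0. PIP2;4 and PIP2;8 did not pass in any genotype, with 95% intervals in Col-0 of -0.01 to 0.60 and -0.18 to 0.46. The first of them was close to the threshold in vnd7, at 0.38 ± 0.15 (adjusted p = 0.0527), and passed in 7 of 24 alternatives.

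PIP2;5 (AT3G54820), a PIP2 gene known to be induced by drought, had 5.22, 5.72 and 4.21 CPM in vnd123 with ABA, against 1.78, 2.21 and 1.16 CPM in vnd123 mock. For vnd7, the libraries held 1.30, 1.46 and 1.43 CPM with ABA, against 0.550, 0.308 and 0.630 CPM in mock. Among Col-0 libraries it was at 2.23, 1.87 and 1.56 CPM with ABA, against 0.697, 0.390 and 0.656 CPM in mock. Within each genotype the ABA libraries were above the mock libraries, and within each treatment the vnd123 libraries were above those of vnd7 and Col-0. Its log2 level rose by 1.55 ± 0.26 in vnd123, 1.50 ± 0.30 in vnd7 and 1.69 ± 0.29 in Col-0 (adjusted p = 8.48e-05, 0.000479 and 0.00014). Its reads were few, 19 to 282 per library.

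Of the 10 TIP genes 6 were tested, and 5 of them rose in every genotype. TIP1;1 (AT2G36830) had 2667, 2236 and 2452 CPM in vnd123 with ABA, against 1927, 1688 and 1634 CPM in vnd123 mock. Its vnd7 libraries had 2379.7, 2832 and 2139 CPM with ABA, against 1924, 1616 and 1509.7 CPM in mock. Col-0 had 2591, 2479 and 2562 CPM with ABA, against 1984, 1756 and 1454 CPM in mock. No mock library reached the lowest ABA library. On the log2 scale it rose by 0.49 ± 0.12 in vnd123, 0.54 ± 0.12 in vnd7 and 0.56 ± 0.12 in Col-0 (adjusted p = 0.0027, 0.000994 and 0.000855). TIP1;2 (AT3G26520), its closest relative, had 1735, 1471 and 1672 CPM in vnd123 with ABA, against 1712, 1475 and 1426 CPM in vnd123 mock. In vnd7 it reached 1571, 1846 and 1402 CPM with ABA, against 1719, 1425 and 1391 CPM in mock. In Col-0 the values were 1779, 1760.5 and 1725 CPM with ABA, against 1797, 1569 and 1259 CPM in mock. These values overlapped between treatments. The gene did not pass, at 0.08 ± 0.12 in vnd123, 0.09 ± 0.12 in vnd7 and 0.19 ± 0.12 in Col-0, with a 95% interval of -0.06 to 0.44 in Col-0. It had 0.663, 0.656 and 0.690 reads per TIP1;1 read in vnd123, vnd7 and Col-0 with ABA, against 0.878, 0.899 and 0.888 in mock.

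The TIP2 genes, whose proteins pass ammonia as well as water, included the gene with the largest rise of the family. TIP2;3 (AT5G47450) had 933, 799 and 883 CPM in vnd123 with ABA, against 261, 189.8 and 213 CPM in vnd123 mock. The vnd7 mutant showed 878, 1076 and 822 CPM with ABA, against 299.8, 191 and 208 CPM in mock. The wild type Col-0 showed 1006, 989.7 and 924 CPM with ABA, against 256, 215 and 177 CPM in mock. The lowest ABA library, at 799 CPM, was above the highest mock library, at 299.8 CPM. The gene rose on the log2 scale by 1.98 ± 0.16 in vnd123, 1.99 ± 0.16 in vnd7 and 2.17 ± 0.16 in Col-0 (adjusted p = 8.94e-09, 7.35e-09 and 2.47e-09). TIP2;2 (AT4G17340) had 1808, 1627 and 1703 CPM in vnd123 with ABA, against 886, 795 and 769.8 CPM in vnd123 mock. For vnd7, the libraries held 1741, 1984 and 1558 CPM with ABA, against 874, 713 and 703 CPM in mock. Among Col-0 libraries it was at 1784, 1772 and 1768 CPM with ABA, against 805, 731 and 609 CPM in mock. Its ABA libraries were also all above its mock libraries. As a log2 change it rose by 1.07 ± 0.10 in vnd123, 1.21 ± 0.10 in vnd7 and 1.31 ± 0.10 in Col-0 (adjusted p = 1.18e-07, 2.02e-08 and 6.92e-09). TIP2;1 (AT3G16240) had 459.6, 404 and 463 CPM in vnd123 with ABA, against 209, 191 and 174 CPM in vnd123 mock. Its vnd7 libraries had 417, 460.3 and 366 CPM with ABA, against 201, 177 and 157 CPM in mock. Col-0 had 446, 500.4 and 459 CPM with ABA, against 244, 216 and 181 CPM in mock. The same separation held here. Its log2 level rose by 1.21 ± 0.11 in vnd123, 1.22 ± 0.11 in vnd7 and 1.13 ± 0.11 in Col-0 (adjusted p = 5.86e-08, 4.6e-08 and 1.29e-07). This gene overlaps its neighbours, and without strand their reads cannot be told apart. TIP2;3 had 0.508, 0.525 and 0.548 reads per TIP2;2 read in vnd123, vnd7 and Col-0 with ABA, against 0.270, 0.302 and 0.301 in mock. TIP4;1, a urea and water channel, rose by 0.42 ± 0.10, 0.56 ± 0.10 and 0.51 ± 0.10 in vnd123, vnd7 and Col-0.

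Of the 9 NIP genes 7 were tested, and 2 rose and 2 fell in every genotype. With 7 genes these counts are no more than a description. NIP1;1 (AT4G19030), which lets arsenite and antimonite into roots, had 69.0, 52.8 and 76.9 CPM in vnd123 with ABA, against 163, 169 and 159 CPM in vnd123 mock. In vnd7 it reached 73.5, 55.9 and 48.4 CPM with ABA, against 161, 164 and 151 CPM in mock. In Col-0 the values were 55.8, 62.5 and 62.4 CPM with ABA, against 200.0, 178 and 164 CPM in mock. All ABA libraries lay below all mock libraries, 76.9 CPM being the highest of the ABA libraries and 151 CPM the lowest of the mock libraries. On the log2 scale it fell by 1.31 ± 0.13 in vnd123, 1.42 ± 0.13 in vnd7 and 1.58 ± 0.13 in Col-0 (adjusted p = 1.76e-07, 5.04e-08 and 1.3e-08). Its close relative NIP1;2, which carries aluminium malate, rose by 0.64 ± 0.11, 0.66 ± 0.11 and 0.71 ± 0.11 in vnd123, vnd7 and Col-0. Reads of AT4G19030 per read of this relative were 3.29 in vnd123, 2.99 in vnd7 and 2.71 in Col-0 with ABA, against 12.8, 12.4 and 13.2 in mock. NIP2;1 (AT2G34390), a lactic acid channel of roots short of oxygen, had 0.333, 0.283 and 0.129 CPM in vnd123 with ABA, against 0.697, 1.05 and 0.665 CPM in vnd123 mock. The vnd7 mutant showed 0.427, 0.481 and 0.449 CPM with ABA, against 2.11, 1.06 and 2.54 CPM in mock. The wild type Col-0 showed 0.431, 0.351 and 0.592 CPM with ABA, against 1.26, 0.985 and 1.01 CPM in mock. The treatments were apart, although it had no more than 129 reads in a library and overlaps other genes. The gene fell on the log2 scale by 1.65 ± 0.40 in vnd123, 2.06 ± 0.36 in vnd7 and 1.23 ± 0.37 in Col-0 (adjusted p = 0.00307, 0.00012 and 0.0145). The call in Col-0 was lost without ABA replicate 2 (adjusted p = 0.0527) or mock replicate 1 (0.0503) of Col-0.

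NIP4;2 (AT5G37820), described from pollen, rose by 0.96 ± 0.21 in vnd123, 1.26 ± 0.21 in vnd7 and 0.65 ± 0.20 in Col-0. In Col-0 the call was lost without ABA replicate 2 or 3 (adjusted p = 0.0512 and 0.107) or mock replicate 1 or 2 (0.069 and 0.0695). The neighbour of this gene is NIP4;1, at 0 reads, and how reads that fit both would be counted is not stated. NIP5;1 (AT4G10380), which takes boric acid into roots, had 111, 122 and 117 CPM in vnd123 with ABA, against 102, 107 and 94.9 CPM in vnd123 mock. For vnd7, the libraries held 104, 112 and 107 CPM with ABA, against 86.7, 107 and 90.1 CPM in mock. Among Col-0 libraries it was at 110.3, 93.8 and 118 CPM with ABA, against 102, 102 and 91.7 CPM in mock. The ABA libraries of vnd123 were just above its mock libraries, and the treatments overlapped in vnd7 and Col-0. The gene did not pass in any genotype, and its 95% interval in Col-0 was -0.06 to 0.31. NIP3;1 and NIP6;1, an arsenite channel and a boric acid channel, did not pass either, with intervals in Col-0 of -0.43 to 0.12 and -0.92 to 0.73. The first of them in vnd7 was at -0.33 ± 0.13 (adjusted p = 0.0553) and passed in 12 of 24 alternatives. The second had 16 reads in replicate 3 of vnd7 with ABA and 45 to 126 in the other libraries.

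Of the 3 SIP genes, 1 rose in vnd123, and none passed in vnd7 or Col-0. SIP1;1 (AT3G04090) had 148, 146 and 163 CPM in vnd123 with ABA, against 126, 141 and 130.0 CPM in vnd123 mock. Its vnd7 libraries had 149, 158 and 145 CPM with ABA, against 145, 133 and 125 CPM in mock. Col-0 had 159, 154 and 172 CPM with ABA, against 153, 142 and 139 CPM in mock. The ABA libraries were above the mock libraries in vnd123 and Col-0 and overlapped them in vnd7. It rose by 0.20 ± 0.07 in vnd123 (adjusted p = 0.0428), a call that 18 of 24 alternatives lost, with an adjusted p of up to 0.229. In vnd7 and Col-0 it was at 0.16 ± 0.07 and 0.16 ± 0.07 and did not pass. SIP2;1 (AT3G56950) had 56.4, 62.7 and 64.4 CPM in vnd123 with ABA, against 61.3, 64.4 and 57.9 CPM in vnd123 mock. In vnd7 it reached 57.4, 61.4 and 52.8 CPM with ABA, against 68.4, 57.5 and 54.6 CPM in mock. In Col-0 the values were 65.1, 58.9 and 65.3 CPM with ABA, against 63.7, 64.2 and 61.5 CPM in mock. ABA and mock libraries overlapped throughout. Its 95% interval was -0.18 to 0.17 in vnd123, -0.25 to 0.10 in vnd7 and -0.18 to 0.18 in Col-0. SIP1;2 was at 0.18 ± 0.12, 0.07 ± 0.12 and -0.28 ± 0.12 in vnd123, vnd7 and Col-0 and did not pass. Both of these genes overlap other genes.

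**Figure D4:**
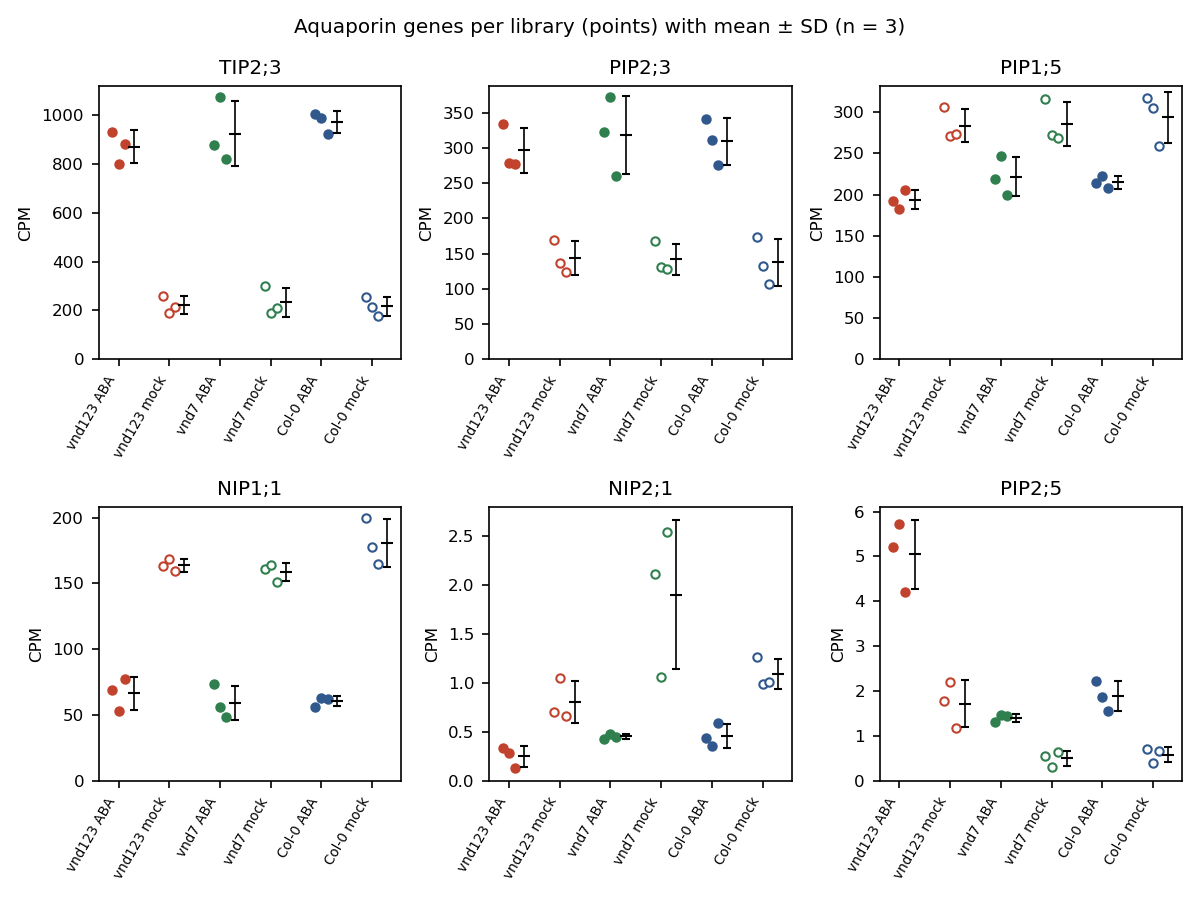
Points are the CPM of single libraries and bars the mean ± SD (n = 3) for 6 aquaporin genes in 6 groups, ABA left of mock, on linear axes from 0. TIP2;3 and PIP2;3 are higher with ABA, the 3 genes that fell are lower, and PIP2;5 is highest in vnd123, at 4.21 to 5.72 CPM with ABA.

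Xylem vessel and root hair markers mostly rose with ABA as well, and most single markers of the other root tissues did not pass as higher. All 6 xylem vessel markers rose in each genotype, and their summed level was 315 to 354 CPM in vnd123 with ABA, against 232 to 249 CPM in vnd123 mock. The sums were 650.2 to 669 CPM in vnd7 with ABA, against 385 to 433 CPM in vnd7 mock, and 584 to 681 CPM in Col-0 with ABA, against 369 to 414 CPM in Col-0 mock. Of 6 root hair markers, 4 rose in vnd123 and 5 in vnd7 and in Col-0, with sums of 477 to 605 CPM over the ABA libraries, against 261 to 349 CPM over the mock libraries. Of 9 endodermis markers, 2 were higher and none lower with ABA in vnd123, 2 higher and 1 lower in vnd7, and 1 higher and 1 lower in Col-0. Their sums were 870.3 to 880.2 CPM in vnd123 with ABA, against 672 to 760.2 CPM in vnd123 mock. The vnd7 sums were 749.8 to 870.2 CPM with ABA, against 618 to 755 CPM in mock. The Col-0 sums were 825 to 857 CPM with ABA, against 671 to 790.1 CPM in mock. So the endodermis sums were higher with ABA, without overlap in vnd123 and Col-0 and with overlap in vnd7. Over all genes tested, 18.6%, 18.8% and 17.9% were higher and 13.8%, 14.5% and 13.4% lower in vnd123, vnd7 and Col-0. The endodermis counts, 11.1% to 22.2% higher and 0.0% to 11.1% lower, were near these shares. The xylem vessel counts were 100.0% higher in each genotype, and the root hair counts 66.7% to 83.3% higher. Of 4 phloem markers, none was higher and 1 lower with ABA in vnd123, and 1 was higher and 1 lower in vnd7 and in Col-0. Of 4 root cap markers, 1 was higher in each genotype, and 1 was lower in vnd7 and in Col-0. Of 4 root meristem markers, none was called in vnd123 or Col-0, and 1 was lower in vnd7. The part of these tissues in the aquaporin changes was not tested.

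Between genotypes, 1 aquaporin gene passed the threshold, PIP2;5 in vnd123. It was the sole aquaporin of 29 that was higher in vnd123 than in Col-0 with ABA, beside 0.144% of all genes tested. In mock it was again the sole one, beside 0.125%. No aquaporin was lower, beside 0.944% of all genes tested with ABA and 0.484% in mock, which is near those shares. PIP2;5 averaged 5.05 ± 0.769 CPM in vnd123 and 1.88 ± 0.336 CPM in Col-0 with ABA, a log2 difference of 1.42 ± 0.26 (adjusted p = 0.00588). In mock it averaged 1.72 ± 0.526 CPM in vnd123 and 0.581 ± 0.167 CPM in Col-0, a log2 difference of 1.56 ± 0.29 (adjusted p = 0.00918). All 3 vnd123 libraries were above all 3 Col-0 libraries in both treatments. The call in mock was lost in a fit of only these 2 groups (adjusted p = 0.0757), without Col-0 mock replicate 2 (0.0836) and without vnd123 mock replicate 2 (0.087). The call with ABA held in 24 of 24 alternatives, with an adjusted p of up to 0.0415. At an unadjusted p under 0.05 there was no other aquaporin in vnd123 with ABA and 1 other in mock, SIP1;2, at -0.44 ± 0.12 (adjusted p = 0.173). Over all 20869 genes tested, 2143 were under that p with ABA and 1352 in mock. The 3 vnd123 mock libraries of SIP1;2 were all below the 3 of Col-0, and so were those of NIP4;2, at -0.34 ± 0.21 (adjusted p = 0.876).

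In vnd7, no aquaporin differed from Col-0 with ABA, beside 0.163% of all genes tested, or in mock, beside 0.0671%. At an unadjusted p under 0.05 there were 0 of 29 with ABA and 4 of 29 in mock, beside 2665 and 1017 of all 20869 genes tested. DESeq2 also called 0 aquaporins in each. PIP2;5 in vnd7 was at -0.43 ± 0.27 with ABA and -0.24 ± 0.32 in mock against Col-0, with 95% intervals of -0.99 to 0.14 and -0.92 to 0.43. The 4 genes in mock were NIP4;2 at -0.56 ± 0.21, SIP1;2 at -0.33 ± 0.12, TIP2;1 at -0.26 ± 0.11 and NIP2;1 at 0.80 ± 0.33. Both mutants are set against the same Col-0 libraries, here and below. For the abundant genes the intervals were narrow. TIP1;1 lay between -0.23 and 0.26 in vnd123 mock and between -0.28 and 0.20 in vnd7 mock against Col-0, and PIP2;1 between -0.27 and 0.31 and between -0.34 and 0.24. Of the 6 xylem vessel markers, 5 were lower in vnd123 than in Col-0 with ABA, beside 0.944% of all genes tested. In mock all 6 were lower, beside 0.484%. None of the 6 differed in vnd7, which is near the shares of 0.163% with ABA and 0.0671% in mock given above. The part of these markers in the genotype difference was not tested.

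**Figure D5:**
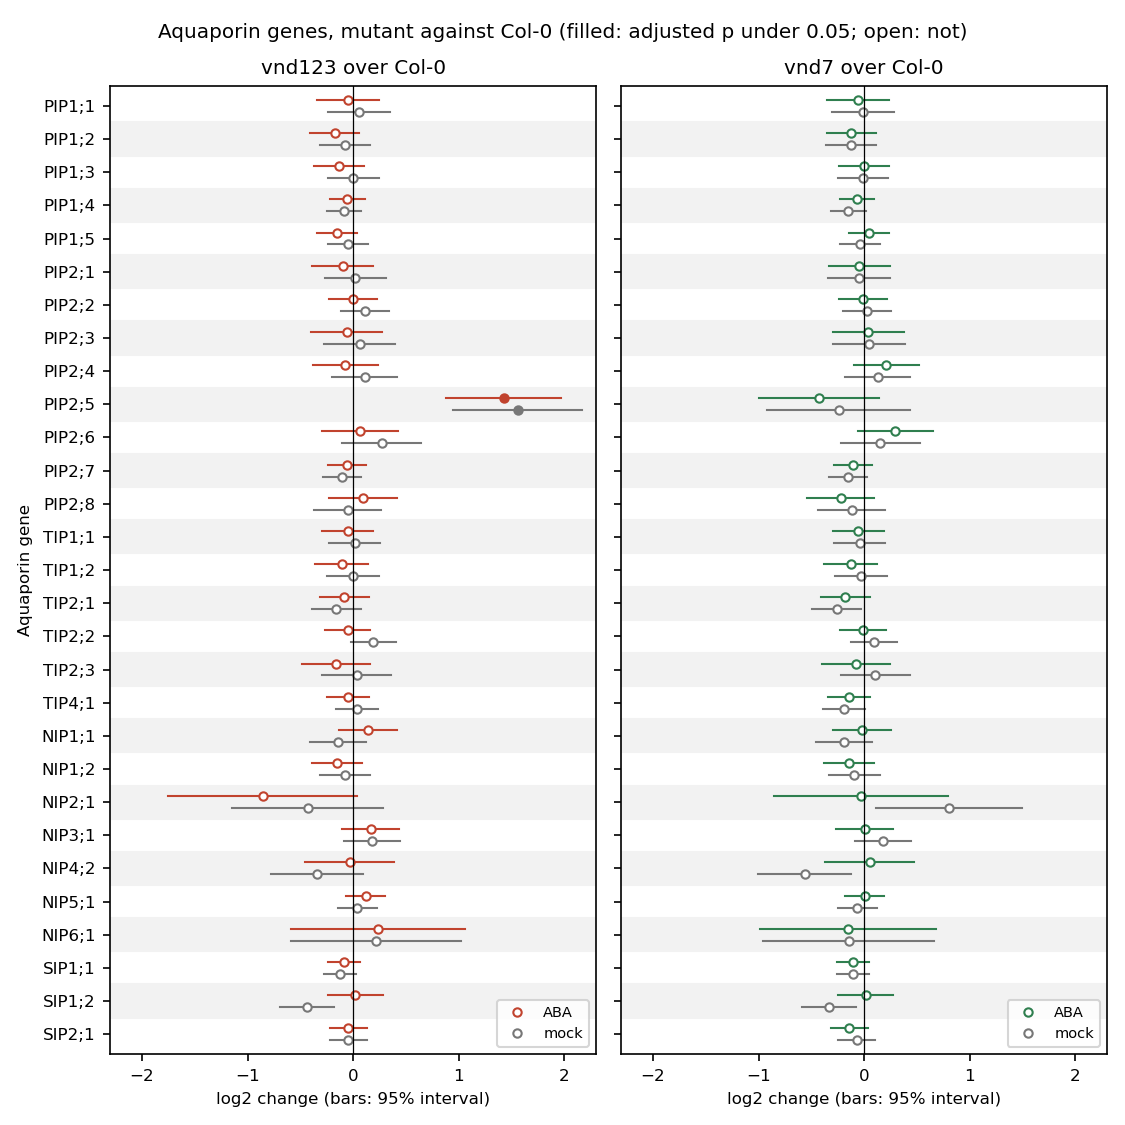
Points give the log2 difference of each mutant over Col-0 and bars its 95% interval for the 29 tested genes, with ABA above mock in each row, and filled points passed the adjusted p of 0.05. PIP2;5 in vnd123, at 1.42 with ABA and 1.56 in mock, is the only gene with filled points.

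The ABA response itself was also compared between genotypes, as the interaction of genotype and treatment. No aquaporin passed in vnd123 against Col-0 or in vnd7 against Col-0, beside 0.0% of all genes in either comparison. At an unadjusted p under 0.05 there was 1 aquaporin of 29 in each, beside 748 of all 20869 genes in vnd123 and 835 in vnd7. That is near the share of all genes, and DESeq2 called 0 aquaporins in each. In vnd123 the gene was SIP1;2, at 0.46 ± 0.17 with a 95% interval of 0.09 to 0.82. In vnd7 it was NIP4;2, at 0.61 ± 0.29 with an interval of 0.01 to 1.22. Of the 58 intervals, 52 lay within a log2 difference of 1 in either direction. The widest belonged to NIP6;1, and the others beyond that limit were those of NIP2;1 in both mutants and of PIP2;5 and NIP4;2 in vnd7. TIP2;3 had an interval of -0.65 to 0.27 in vnd123 and -0.64 to 0.28 in vnd7, and NIP1;1 one of -0.10 to 0.66 and -0.22 to 0.55. A missed threshold does not show that the responses were alike. The 3 ABA responses use different libraries.

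All 13 genes of a list of kinases, trafficking proteins and ubiquitin ligases known to act on aquaporins were tested. Of these, vnd123 had 2 that rose and 3 that fell, vnd7 had 4 and 3, and Col-0 had 3 and 3, with medians of 0.02, 0.01 and -0.08. As shares these were 15.4%, 30.8% and 23.1% higher, beside 18.6%, 18.8% and 17.9% of all genes tested, and 23.1% lower in each genotype, beside 13.8%, 14.5% and 13.4%, so the counts are no more than a description of the list. TSPO, an ABA-induced membrane protein that leads PIP2;7 to degradation, had 19.8, 20.9 and 37.9 CPM in vnd123 with ABA, against 0.349, 0.184 and 0.517 CPM in vnd123 mock. In Col-0 it had 26.4, 39.8 and 19.7 CPM with ABA, against 0.153, 0.595 and 0.431 CPM in mock. It was near 0 in mock and rose by 6.21 ± 0.39 in vnd123, 6.31 ± 0.39 in vnd7 and 6.16 ± 0.39 in Col-0. OST1, the ABA-activated kinase that phosphorylates PIP2;1, rose by 0.95 ± 0.11, 0.80 ± 0.11 and 0.92 ± 0.11 in the same genotypes. SYP121, a syntaxin that delivers PIP proteins to the plasma membrane, fell, at -0.23 ± 0.07, -0.28 ± 0.07 and -0.34 ± 0.07. The ubiquitin ligase gene RMA1 fell as well, at -0.47 ± 0.15, -0.43 ± 0.15 and -0.56 ± 0.15.

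Of 11 genes of root ion transport and proton pumping, which set the osmotic gradient for water, 10 were tested. There were 3 that rose and 2 that fell in vnd123, and 4 and 2 in both vnd7 and Col-0, with medians of 0.12, 0.15 and 0.13. Of all genes tested, 18.6%, 18.8% and 17.9% were higher and 13.8%, 14.5% and 13.4% lower in vnd123, vnd7 and Col-0, and 2 lower of 10 is near that share. GORK, an outward potassium channel, averaged 100.4 ± 5.88 CPM in vnd123 with ABA, against 11.2 ± 1.30 CPM in vnd123 mock. Its level was 102 ± 11.2 CPM in Col-0 with ABA, against 10.2 ± 0.342 CPM in Col-0 mock. SKOR, which loads potassium into the xylem, fell, at -1.78 ± 0.21 in vnd123, -1.51 ± 0.20 in vnd7 and -1.30 ± 0.20 in Col-0. The boron exporter genes BOR4 and BOR2 rose by 1.52 ± 0.09 and 0.81 ± 0.10 in vnd123, 2.00 ± 0.09 and 0.51 ± 0.10 in vnd7, and 1.66 ± 0.09 and 0.64 ± 0.10 in Col-0. BOR1, the third boron exporter gene of the list and named after its values were seen, fell, at -0.56 ± 0.15, -0.66 ± 0.15 and -0.61 ± 0.15 in the same genotypes. The proton pump genes AHA1 and AHA2 did not pass in any genotype, and HAK5 had too few reads to be tested. AVP1, also a proton pump gene of the list and named after its values were seen, had higher mean levels with ABA. It was not among the 3 that rose in vnd123. It averaged 723 ± 11.1, 789 ± 26.2 and 766 ± 59.4 CPM in vnd123, vnd7 and Col-0 with ABA. In mock the means were 649 ± 9.90, 645 ± 12.3 and 658 ± 26.6 CPM, and the libraries did not overlap within a genotype.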

How the data were processed

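Root RNA of 18 samples was sequenced with paired reads of 150 bases after preparation with an unstranded kit, per the labels' protocols. HISAT2 and HTSeq were used, per the submitters' processing notes. The values the authors deposited are whole-number counts of reads per gene with no normalization. The sources used here name no genome build, annotation or counting options, so no coordinates or sequences are printed. Gene names, overlaps and exon lengths came from the TAIR10.1 annotation, which gave 34 of 35 members under the names used. All columns matched a sample. Non-coding identifiers (1385) took at most 0.00106% of a library's counts.

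Counts were analysed in R 4.3.3 with edgeR 4.0.16. filterByExpr left 20869 genes, library sizes were scaled with TMM factors (0.965 to 1.05), and 1 quasi-likelihood fit with 6 group coefficients covered all 18 libraries (common biological coefficient of variation 0.106). Comparisons were contrasts with Benjamini-Hochberg adjustment over all genes. SEs and 95% intervals came from the same fit, and the 3-count floor covers counting error only. CPM per kb used the exon union of each gene, in place of the coding length first planned. No 2 replicates agreed within sampling noise (chi-square per degree of freedom 8.87 to 30.6). The fit was tested on simulated data.

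All 35 members are accounted for. Values per library are given for the 2 members of each subfamily with the highest level per kb, the 8 largest changes in Col-0, every member that fell, and every member that differed between genotypes. Up to 4 genes per further list were named, smallest p first. Membership followed published naming, but the family and the further lists were picked for description with earlier results of these data known. Alternatives were DESeq2 1.42.0, RLE and unscaled library sizes, no filter, a replicate block, a fit of only the groups compared, and leaving out each library.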

Additional observations from a re-analysis of the deposited data

How the results depend on the processing

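Across 24 alternatives, 18 of them leaving out 1 library each, 58 of 63 called aquaporin changes kept their call and direction in every one, 5 lost it in at least 1, and none reversed. The 5 were the ABA changes of NIP2;1 and NIP4;2 in Col-0 and of PIP2;2 and SIP1;1 in vnd123, and PIP2;5 in vnd123 against Col-0 in mock. For a comparison of a pair of groups, most of the 18 left out a library of another group. Those alter only the filter, the scaling and the shared estimate of spread, so they are a weak check of a call. With only the compared groups fitted, 0 aquaporins passed in vnd123 against Col-0 in mock, and 0 to 1 when 1 library was left out. Leaving out a library gave 18 to 21 aquaporins in the ABA response of Col-0, 19 to 21 in vnd123 and 20 to 22 in vnd7. Counts over all genes moved more. DESeq2 called 407 genes in vnd123 against Col-0 with ABA, where edgeR called 227, and leaving out a library gave 116 to 284. In mock it called 235, where edgeR called 127 (84 to 134). For vnd7 against Col-0 with ABA, DESeq2 called 159 and a fit of only these groups 56, where edgeR called 34. In mock the counts were 38 and 14. For the interaction of vnd123, DESeq2 called 6 genes and the fit of only these groups 1, where edgeR called 0. The labels do not tie the replicate numbers to a shared batch, and same-numbered deviations did not correlate above 0.1 in every pair of any comparison (-0.062 to 0.202), so the samples were not treated as paired. The highest values were those of vnd7 and Col-0 in mock (0.202, 0.057 and 0.132), and 9 of 18 libraries correlated best with their own number. Whether same-numbered mock libraries share a source was not tested. With the replicate block, 20, 21 and 20 aquaporins passed in the ABA responses of vnd123, vnd7 and Col-0, and 1 in vnd123 against Col-0 in each treatment. Depth limits the 3 tested members with the lowest levels and the 6 untested genes.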

Other observations

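Many aquaporin genes were highest in the same library of a group in mock and in vnd7 with ABA, though not in Col-0 with ABA. In mock, the library numbered 1 was the highest of its group for 16 of 29 tested aquaporins in vnd123, 22 in vnd7 and 22 in Col-0, against 38.2%, 39.9% and 41.7% of all genes tested. For 15 of the 29 it was the highest in all 3 genotypes, against 10.7% of all genes tested, and these were 4 PIP1, 5 PIP2, 5 TIP genes and 1 SIP gene. With ABA, replicate 2 was the highest for 26 of 29 in vnd7, against 37.4% of all genes tested. In vnd123 with ABA, replicates 1, 2 and 3 were the highest for 16, 3 and 10 of 29, against 30.7%, 30.1% and 39.2% of all genes tested. In Col-0 with ABA they were the highest for 11, 9 and 9, against 33.6%, 31.7% and 34.8%. With ABA no replicate number was the highest in all 3 genotypes for any of the 29. The family's share of counts in mock was 1.45%, 1.27% and 1.21% in replicates 1, 2 and 3 of vnd123, 1.43%, 1.23% and 1.16% in vnd7 and 1.45%, 1.33% and 1.11% in Col-0. The 29 genes are not independent observations of the ABA response. PIP2;5 had 0.433 ± 0.0878 reads per read of PIP2;6 in vnd123, 0.104 ± 0.0214 in vnd7 and 0.174 ± 0.0609 in Col-0 with ABA, and 0.279 ± 0.0913, 0.0861 ± 0.0281 and 0.113 ± 0.0102 in the same genotypes in mock (SD, n = 3). This difference between genotypes was noticed in the data, and the ratio itself was not tested.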
